A study of Solanum lycopersicum with 14 samples.

Results

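The MYB transcription factors of tomato fruit were followed through development and ripening. Genes were taken as MYB factors where the symbol of their closest Arabidopsis gene, as listed beside each tomato gene, was MYB followed by a number (with or without a letter such as R before it), with 1 such gene left aside. The count table held 90 such genes, and 48 of them reached at least 10 reads in 1 library or more, against 19923 of 26397 genes in all. The other 42 stayed under 10 reads in every library. RNA came from fruits of the cultivars Ailsa Craig (AC), an early English variety, and HG6-61, which matures later, both grown in the same greenhouse with no other treatment. Fruits were taken at 7 stages a week apart, from 7 to 49 days after flowering (DAF), from 5 plants of each cultivar, and were pooled. Each cultivar and stage gave 1 library, so 14 libraries were compared, and the study's methods took the cultivars as replicates of each other. Spread between plants was therefore not measured, and differences between cultivars form part of the error of every stage test.

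MYB proteins bind DNA through copies of a helix-turn-helix repeat, and most plant members carry a pair of these repeats. They act downstream of developmental and hormonal signals and switch target genes on or off, often together with bHLH partners. In plants they are known for setting the output of the phenylpropanoid and flavonoid pathways, for the wax, cutin and suberin of surface layers, for secondary cell walls, and for organ boundaries, stomata and stress responses. The roles given here are those of the Arabidopsis genes unless another plant is named, since symbols of the tomato genes are those of the closest Arabidopsis gene.

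Library totals lay between 1461817 and 6274456 counted reads (median 2609700), the smallest being that of HG6-61 at 35 DAF. Levels are given as RPKM, which scales the reads of a gene by its length and by the size of the library, so that genes can be compared per length. The tissue was described as pericarp, but RNA of seed genes was abundant in the middle libraries. The summed RPKM of 17 seed genes (storage proteins, oleosins and FUS3) was 24.01, 383, 19002, 18675, 3319, 721 and 664 in AC from 7 to 49 DAF, and 11.3, 33.6, 4437, 13563, 4562, 696 and 433 in HG6-61. Of these 17 genes, 13 had 10 reads or more in each 28 DAF library, against 0 in AC and 1 in HG6-61 at 7 DAF, where 5 and 8 had no read. The 6 ripening genes summed to 784 RPKM at 28 DAF and 10881 at 35 DAF in AC. In HG6-61 the ripening sum was still 234 at 35 DAF and reached 7376 at 42 DAF. The label mature green is given alike to the libraries from 7 to 35 DAF, and the ripening genes of AC at 35 DAF went against it. Counts of MYB genes are therefore also given without both 35 DAF libraries or with another AC stage in their place.

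**Figure D1:**
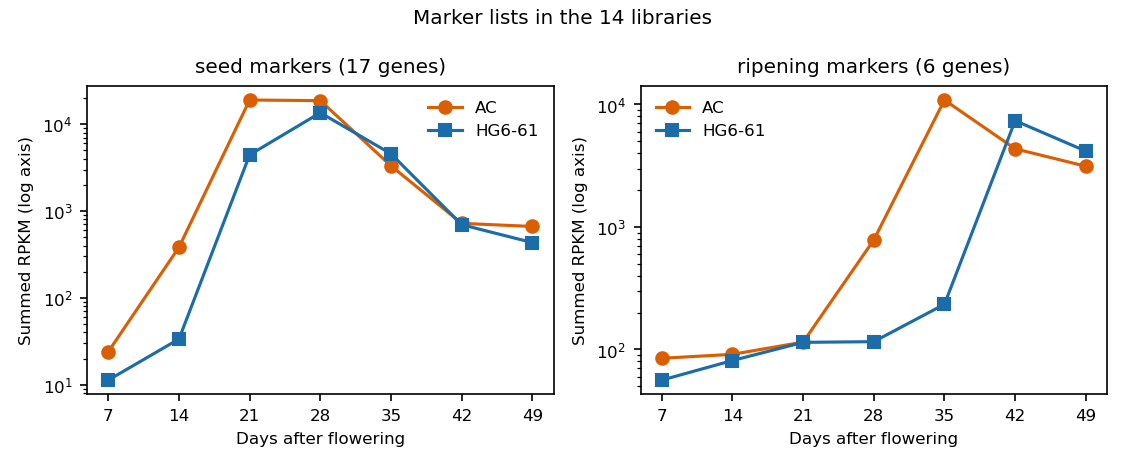
Summed RPKM (log axis) of 17 seed genes and of 6 ripening genes in each library against days after flowering, with 1 point per library of AC and HG6-61. The seed sum of AC was highest at 21 and 28 DAF and that of HG6-61 at 28 DAF (13563), and the ripening genes of AC reached 10881 at 35 DAF, where those of HG6-61 were at 234.

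MYB genes of the fruit fell into a few abundant and many scarce ones. MYB91, MYBR1 and MYB70 together held between 51.4% and 86.0% of the summed RPKM of the 48 genes. The sum itself lay between 452 and 790 RPKM in AC and between 314 and 639 in HG6-61. The other 45 genes never exceeded 56.7 RPKM, a value MYB48 Solyc11g073120.1 reached in AC at 35 DAF. Up to 28 DAF, 16 to 23 MYB genes per library were at 5 RPKM or more, against 9 in AC and 16 in HG6-61 at 35 DAF, 6 and 7 at 42 DAF, and 11 and 12 at 49 DAF. No read was counted in 134 of the 672 values. Neither count was made for all genes, so neither sets the MYB genes apart from them. Depth also differed, with 4221600 reads in AC at 28 DAF and 1891668 at 42 DAF. Since bulk fruit tissue was sequenced, fewer cells that use a gene and less RNA per cell cannot be told apart.

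**Figure D2:**
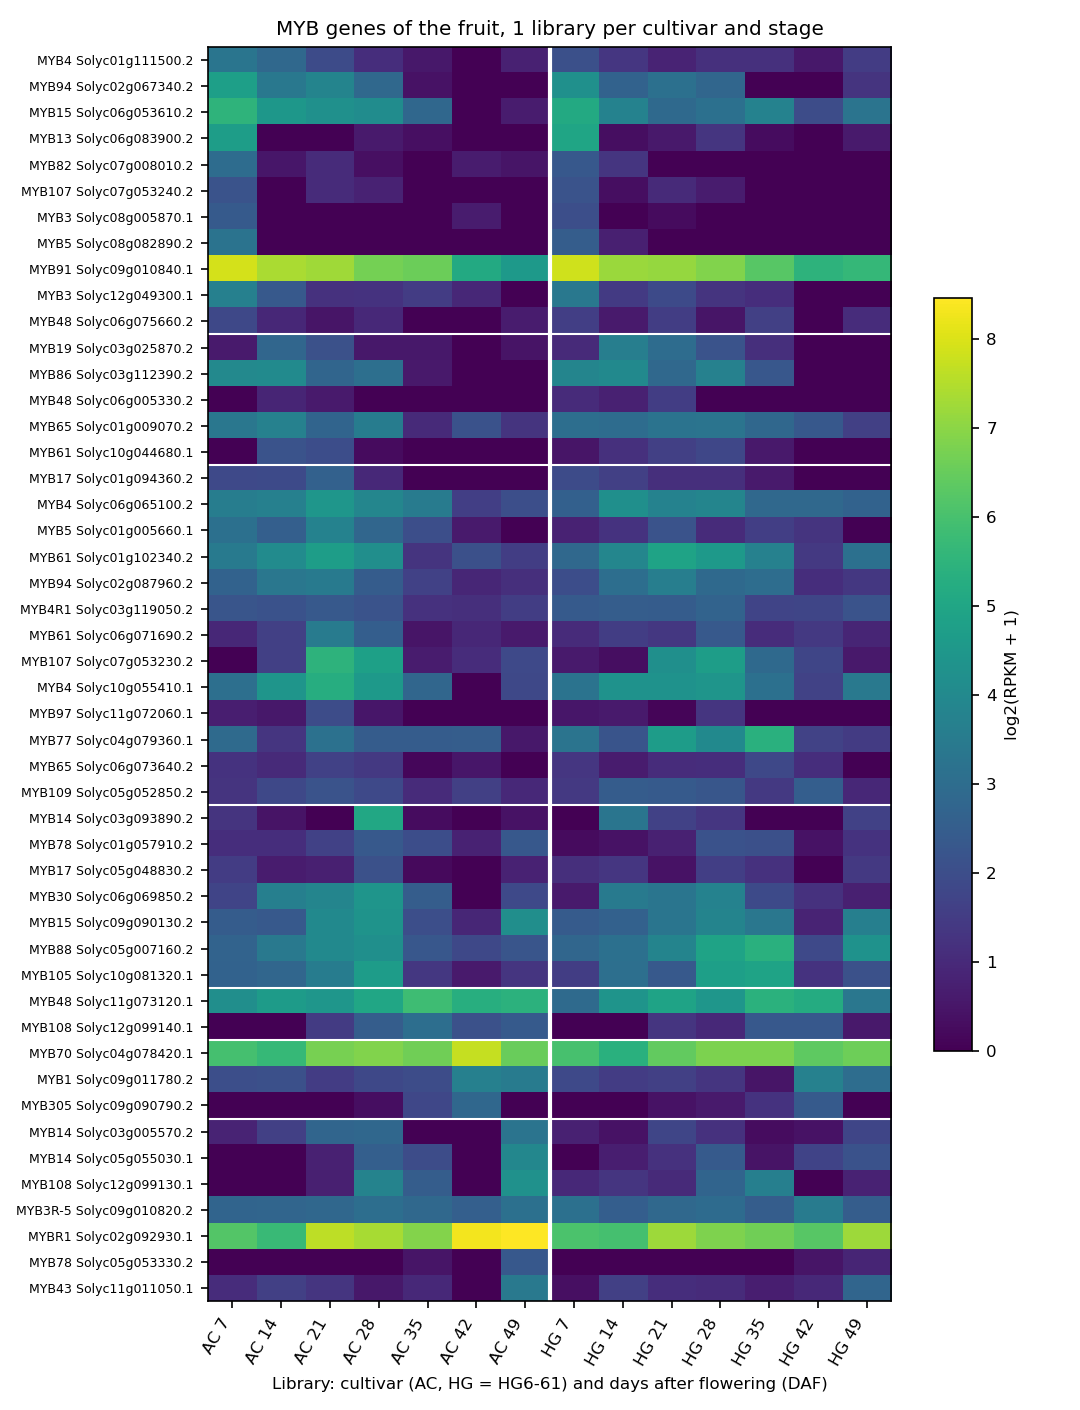
Level of the 48 MYB genes as log2(RPKM + 1) (colour) in the 7 AC and 7 HG6-61 libraries, with genes as rows grouped by their stage of highest RPKM in AC (white lines). The bright rows are MYB91, MYB70 and MYBR1, and the largest block is that of the 13 genes highest at 21 DAF.

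Grouped by the stage of highest RPKM, from the youngest to the oldest, the MYB genes numbered 11, 5, 13, 7, 2, 3 and 7 in AC and 11, 4, 5, 13, 7, 5 and 3 in HG6-61. A stage of 21 or 28 DAF held 20 of 48 MYB genes in AC (41.7%) and 18 in HG6-61 (37.5%), against 23.1% and 20.6% of all genes. The groups rest on measured values, so these shares are a description. Beyond counting error, the highest stage exceeded the second in 21 of the 48 MYB genes in AC and in 16 in HG6-61. In the others the stage is uncertain, whether reads were few or many. MYBR1 in HG6-61, for example, was at 150 RPKM at 49 DAF and 147 at 21 DAF. The intervals behind the 21 and 16 did not allow for the highest stage having been chosen first. The same count over all genes was not made. Summed seed genes were highest at 21 and 28 DAF in AC, and in HG6-61 at 28 DAF, with 4437 RPKM at 21 DAF and 4562 at 35 DAF. The part of seed RNA in these numbers was not tested.

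**Figure D3:**
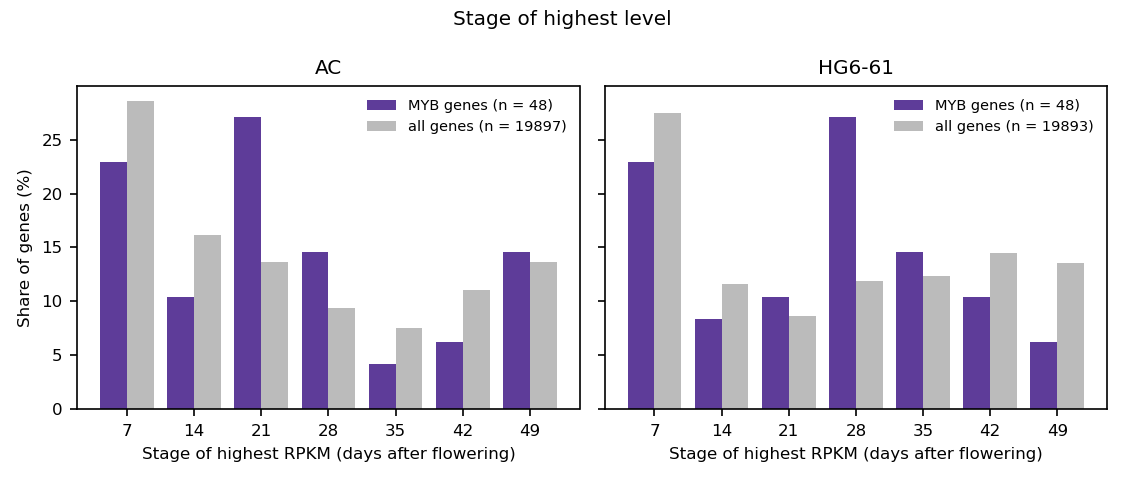
Share of genes (%) with their highest RPKM at each stage, for the 48 MYB genes and for all genes with at least 10 reads in a library, in AC and HG6-61. The largest MYB bar stands over 21 DAF for AC and over 28 DAF for HG6-61, above the bar of all genes in each cultivar.

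The stage of highest level was the same in both cultivars for 25 of the 48 genes (52.1%), against 44.2% of all genes, and was at most 1 stage apart for 36 (75.0%, against 69.4%). Where it differed, HG6-61 was later for 15 genes and earlier for 8 (31.3% and 16.7% of the 48), against 33.5% and 22.3% of all genes. At 7 DAF, 10 of the 11 genes highest there in AC were also highest there in HG6-61. Some of them reached 10 reads at 7 DAF only, so the limit on reads favoured that outcome. Among all genes 7 DAF was the most frequent stage (28.5% in AC and 27.5% in HG6-61), and their agreement by stage was not counted. Of the 13 genes highest at 21 DAF in AC, 5 were highest at 28 DAF in HG6-61 and 3 at 21 DAF. Without the 35 DAF libraries, 28 of the 48 genes had the same stage (58.3%, against 47.7% of all genes). All of these counts include MYB genes whose highest stage did not exceed the second beyond counting error.

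The most abundant MYB gene of young fruit was MYB91 (Solyc09g010840.1, chromosome 9), the tomato relative of the Arabidopsis leaf polarity gene AS1, which keeps meristem genes silent in leaf primordia. It is the MYB gene that the study cloned, and the gene-specific part of its primers is shown to identify the measured transcript, with an ATG in capitals and the vector tails left out.
MYB91 cDNA forward: tATGaggagtttgggaggatgg
MYB91 cDNA reverse: gaaaagtcgcggcaagtagaa
Its level was 240.3, 166, 151, 104, 93.9, 34.4 and 22.9 RPKM in AC from 7 to 49 DAF, and 233, 144, 139, 117, 76.6, 43.6 and 48.8 in HG6-61. The AC values were lower at every step, and those of HG6-61 at every step up to 42 DAF. Between 7 and 49 DAF the RPKM was 10.5-fold lower in AC and 4.77-fold lower in HG6-61.

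The other abundant gene of this group was MYB15 Solyc06g053610.2, a relative of a regulator of lignin and cold responses. It was read at 44.9, 21.4, 17.8, 16.3, 6.05, 0 and 0.58 RPKM in AC and at 34.3, 12.4, 6.47, 7.71, 12.4, 2.91 and 8.50 in HG6-61. MYB13 Solyc06g083900.2, of the same subgroup, was all but limited to the first stage: it had 41 reads at 7 DAF in AC and 107 in HG6-61 (25.4 and 30.6 RPKM), and 0 to 5 reads in each of the 12 later libraries. MYB94 Solyc02g067340.2, a relative of an activator of cuticular wax synthesis, was at 26.8, 9.39, 13.2, 6.20, 0.34, 0 and 0 RPKM in AC and at 17.9, 5.40, 7.66, 5.93, 0, 0 and 1.39 in HG6-61. All libraries up to 28 DAF were thus above all later ones for this wax-related gene.

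MYB3 Solyc12g049300.1, whose Arabidopsis counterpart represses phenylpropanoid genes, was at 11.8 RPKM at 7 DAF in AC and 9.49 in HG6-61, at 0.94 to 4.11 and 0 to 2.70 from 14 to 42 DAF, and had no read at 49 DAF. Solyc08g005870.1, the second gene closest to MYB3, had 7 and 11 reads at 7 DAF and 0 or 1 in each later library. A gene close to MYB5, Solyc08g082890.2, had 14 and 17 reads at 7 DAF and otherwise only 3 reads, in HG6-61 at 14 DAF. MYB82 (Solyc07g008010.2), a trichome regulator, had 11 and 14 reads at 7 DAF and at most 6 later. These scarce genes were highest in both cultivars at the youngest stage.

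Highest at 14 DAF in both cultivars was MYB86 (Solyc03g112390.2), which belongs to the subgroup of the wall and stomatal regulator MYB61. It was at 14.9, 15.6, 5.71, 7.58, 0.48, 0 and 0 RPKM in AC and at 13.4, 15.4, 6.25, 12.1, 3.93, 0 and 0 in HG6-61, without a read at 42 and 49 DAF. MYB65 Solyc01g009070.2, close to a gibberellin-related factor of anthers that microRNA miR159 targets, had 9.32, 12.1, 5.57, 10.7, 1, 3.35 and 1.40 RPKM in AC, and 7.28, 7.04, 8.31, 8.56, 6.07, 3.98 and 2.03 in HG6-61. The AC value at 35 DAF lay below that of HG6-61. MYB19 (Solyc03g025870.2), a relative of the phytochrome A signalling factor LAF1, was at 5.94 RPKM in AC and 11.4 in HG6-61 at 14 DAF, with 15 and 52 reads, and at 0 to 6.90 in the other 12 libraries.

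**Figure D4:**
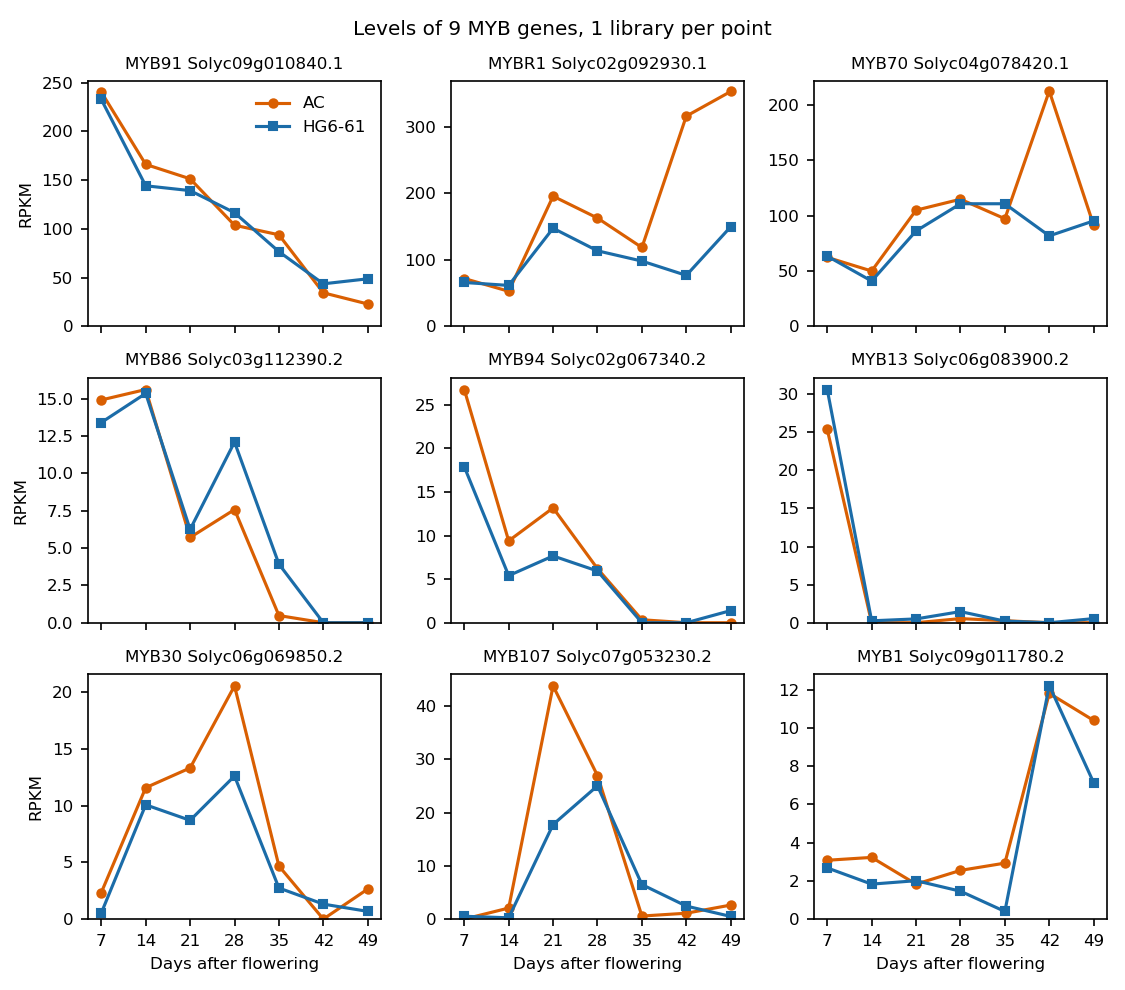
RPKM of 9 MYB genes against days after flowering, with 1 point per library of AC and of HG6-61 and each panel on its own axis from 0. MYB91, MYB86, MYB94 and MYB13 are highest in young fruit, MYB30 and MYB107 at 21 or 28 DAF, and MYB1 at 42 DAF, while MYBR1 at 42 and 49 DAF is higher in AC than in HG6-61.

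Among the genes highest at 21 DAF in AC, the one with the highest value was MYB107 Solyc07g053230.2, whose Arabidopsis counterpart switches on suberin genes in the seed coat. It was at 0, 2.07, 43.8, 26.9, 0.57, 1.10 and 2.63 RPKM in AC and at 0.53, 0.24, 17.7, 25.01, 6.48, 2.44 and 0.50 in HG6-61. The 21 and 28 DAF libraries of both cultivars stood above the other 10, and the summed seed genes were high in the same 4 libraries (4437 to 19002 RPKM) but also in HG6-61 at 35 DAF (4562), where MYB107 was at 6.48. The 10 genes listed for suberin summed to between 29.2 and 73.7 RPKM in AC. In HG6-61 they summed to between 19.7 and 86.6, and the sum was highest at 28 DAF in both. Of the 7 tested, 0 were called higher at 28 than at 7 DAF. Much of the sum was 1 gene listed as FAR1, Solyc08g060840.1 (42.6 of 44.6 RPKM in AC at 49 DAF). The list was taken by Arabidopsis symbol alone, and whether this gene acts in suberin synthesis was not tested. The genes differed: from 7 to 28 DAF, GPAT5 went from 9.19 to 30.6 RPKM in AC and from 8.91 to 23.3 in HG6-61. KCS20 Solyc05g013220.2 went from 23.3 to 1.34 and from 16.3 to 2.81. The part of seed RNA in the MYB107 level was not tested.

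MYB4 Solyc10g055410.1, relative of a repressor of phenylpropanoid synthesis, was at 7.45, 20.19, 37.9, 22.1, 5.89, 0 and 2.56 RPKM in AC and at 8.30, 18.97, 18.9, 20.6, 7.66, 2.15 and 9.84 in HG6-61. MYB61 Solyc01g102340.2, relative of a regulator of lignin, seed mucilage and stomata, was at 10.01, 15.8, 25.1, 17.1, 1.40, 3.22 and 1.89 RPKM in AC and at 6.27, 13.9, 29.4, 22.6, 12.3, 1.67 and 7.75 in HG6-61. Both genes were highest from 14 to 28 DAF, and MYB61 was higher in HG6-61 than in AC at 35 DAF. MYB5 Solyc01g005660.1, close to a seed coat and trichome regulator, was at 12.6 RPKM at 21 DAF in AC and 3.44 in HG6-61, on 25 and 21 reads, and at 0 to 7.80 elsewhere.

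MYB30 Solyc06g069850.2, relative of a regulator of very-long-chain fatty acids and of defence-related cell death, was at 2.34, 11.6, 13.3, 20.6, 4.68, 0 and 2.65 RPKM in AC and at 0.54, 10.1, 8.71, 12.6, 2.74, 1.32 and 0.68 in HG6-61. MYB105 (Solyc10g081320.1), relative of a gene that separates lateral organs, was at 5.38, 5.87, 10.8, 24.4, 1.60, 0.52 and 1.46 RPKM in AC and at 1.92, 7.62, 4.11, 26.5, 29.1, 1.38 and 3.28 in HG6-61. At 28 DAF both genes had high values in both cultivars, and MYB105 was still as high at 35 DAF in HG6-61. MYB88 (Solyc05g007160.2), which limits divisions in the stomatal lineage, was at 5.42, 9.75, 15.3, 17.6, 3.88, 2.60 and 3.68 RPKM in AC and at 5.94, 7.72, 13.1, 29.4, 40.5, 2.63 and 18.8 in HG6-61.

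An exception within this group was MYB14 Solyc03g093890.2, of the subgroup of MYB13 and MYB15. In AC it had 155 reads at 28 DAF (32.9 RPKM) and 0 to 2 reads in each of the other 6 libraries. In HG6-61 it had 44 reads at 14 DAF (8.82 RPKM), 14 at 21 DAF and 0 to 6 elsewhere. The AC value is that of 1 library, and every HG6-61 value was at or below 8.82 RPKM. The remaining genes highest at 21 or 28 DAF in AC stayed under 21 RPKM there and include MYB97 Solyc11g072060.1, relative of a pollen tube factor, and MYB109 Solyc05g052850.2, each with 10 reads at their AC stage.

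Ripening fruit was dominated by MYBR1 and MYB70, which belong to a subgroup of abscisic acid, auxin and stress response factors. MYBR1 (Solyc02g092930.1, also known as MYB44) was at 71.8, 52.7, 195, 163, 118, 316 and 353 RPKM in AC and at 65.9, 61.5, 147, 113, 98.0, 76.6 and 150 in HG6-61. The values were close up to 14 DAF, and at 42 and 49 DAF those of AC were above every HG6-61 value. MYB70 Solyc04g078420.1 is one of the factors that the study measured by qRT-PCR, and its primers identify the transcript.
MYB70 qRT-PCR forward: aagccaacccagtcccctaa
MYB70 qRT-PCR reverse: atgacccatgaaagccgatg
Its level was 62.2, 49.9, 105, 115, 97.1, 212 and 91.2 RPKM in AC and 63.4, 40.9, 86.1, 111, 111, 81.6 and 95.2 in HG6-61. Apart from AC at 42 DAF, the cultivars stayed close at every stage.

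MYB48 Solyc11g073120.1 was highest at 35 DAF in both cultivars, at 17.1, 23.8, 20.7, 30.9, 56.7, 38.8 and 42.4 RPKM in AC and at 6.66, 19.8, 29.3, 21.0, 41.4, 35.8 and 9.23 in HG6-61. MYB1 (Solyc09g011780.2) was at 3.08, 3.23, 1.83, 2.55, 2.93, 11.8 and 10.4 RPKM in AC and at 2.68, 1.83, 2.01, 1.46, 0.40, 12.2 and 7.14 in HG6-61. The 42 and 49 DAF libraries of MYB1 stood above the other 10, in AC and HG6-61 alike. MYB43 (Solyc11g011050.1), a relative of lignin regulators of secondary walls, had 26 reads at 49 DAF in AC (9.80 RPKM) and 11 in HG6-61 (5.79), and 0 to 9 reads in the other libraries. MYB305 (Solyc09g090790.2) had 10 and 8 reads at 42 DAF, 9 and 2 at 35 DAF, and 0 to 2 in each other library.

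Among the more even genes was MYB3R-5 (Solyc09g010820.2), which carries an additional repeat and belongs to the factors that time the genes of mitosis. It lay between 4.87 and 7.73 RPKM in AC and between 4.63 and 10.4 in HG6-61. Over the same stages, 9 of the 14 tested cell division genes (B-type cyclins, their kinases and CDC20) were lower at 49 than at 7 DAF and 0 were higher. MYB4R1 (Solyc03g119050.2) was similarly even, between 1.20 and 4.12 RPKM in AC and between 2.36 and 5.52 in HG6-61.

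Stages were then tested over both cultivars with edgeR's quasi-likelihood test, with stage and cultivar in the model. A call needed a log2 fold change beyond 2 and a p, adjusted after Benjamini and Hochberg over all 18082 genes tested, under 0.01, the limits of the study's methods. Of the 48 MYB genes, 36 had enough reads to be tested. At a limit of 0.05 the calls among them were 7 for 28 against 7 DAF, 16 for 49 against 7 DAF, 8 for 49 against 28 DAF and 24 for any change, against 16.2%, 29.6%, 10.7% and 55.2% of all genes. Those 36 passed a filter on reads that favours genes high at some stage, so their counts do not speak for all 48.

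Between 7 and 28 DAF, 3 of the 36 MYB genes were called, 2 higher and 1 lower, against 9.84% of all genes tested (5.08% higher and 4.76% lower). MYB30 rose by 3.89 on the log2 scale (SE 0.77, adjusted p = 0.00428). MYB107 Solyc07g053230.2 rose by 6.03 (SE 1.24, adjusted p = 0.00509), with 0 and 2 reads at 7 DAF against 106 and 92 at 28 DAF. MYB13 fell by 4.79 on the log2 scale (SE 0.85, adjusted p = 0.00289). In RPKM, the rise of MYB107 was at least 15.6-fold in AC, where 0 reads were given a limit of 3 per library. The median log2 fold change was 0.88 for the MYB genes and -0.02 for all genes, and 0.80 with the 2 genes lacking reads at a stage set to that limit. Without the cultivar term the adjusted p of MYB30 was 0.0115. Leaving out the 7 or the 28 DAF library of either cultivar left 1 library at that stage. The MYB calls were then lost, and fewer of all genes were called too. Leaving out AC at 35 DAF gave 5 calls among 44 MYB genes tested, against 11.1% of all genes.

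Between 7 and 49 DAF, 6 of the 36 were called (5 lower and 1 higher), against 22.6% of all genes tested (13.8% lower and 8.83% higher). MYB91 fell by 2.49 on the log2 scale (SE 0.33, adjusted p = 0.000223). MYB94 Solyc02g067340.2 fell by 4.75 (SE 0.87, adjusted p = 0.00171) and MYB13 by 6.43 (SE 1.07, adjusted p = 0.000998). MYB86 and MYB3 Solyc12g049300.1 also fell (adjusted p = 0.000848 and 0.00219) but had no read at 49 DAF. By the limit of 3 reads per library, MYB86 was at least 18.9-fold lower in AC and at least 13.4-fold lower in HG6-61. For MYB3 the fall was at least 11.2-fold in AC and at least 7.09-fold in HG6-61.

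MYBR1 was the 1 MYB gene called higher at 49 than at 7 DAF, by 2.03 on the log2 scale (SE 0.50, adjusted p = 0.00670). Its RPKM was 4.91-fold higher in AC (95% counting interval 4.24 to 6.01) and 2.27-fold higher in HG6-61 (1.98 to 2.70). The rise lay close to the fold limit: without the cultivar term the adjusted p of MYBR1 was 0.0150, and the call was lost on leaving out any of 8 libraries. The call of MYB91 was lost without AC at 49 DAF (log2 fold change -1.94), those of MYB94 and MYB13 without AC at 7 DAF, and that of MYB3 without any one of the 4 libraries compared. Without AC at 7 DAF, AC at 49 DAF or HG6-61 at 7 DAF, fewer MYB genes were called, and fewer of all genes too. The MYB genes had a median log2 fold change of -0.32, against -0.18 for all genes.

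Between 28 and 49 DAF, MYB86 was the 1 gene called of the 36, against 3.93% of all genes tested (3.06% lower). It fell (adjusted p = 0.00625) from 46 and 68 reads to 0, at least 9.63-fold in AC and at least 12.1-fold in HG6-61. The median log2 fold change of the MYB genes was -1.45 against -0.13 for all genes, and -1.16 with the 5 genes lacking reads at a stage set to the limit. MYB86 was not called when a 7, 21, 28 or 49 DAF library of either cultivar was left out. Leaving out either 35 DAF library, or both, gave 3 calls, against 5.68% to 5.75% of all genes. Leaving out the AC or the HG6-61 library at 42 DAF gave 2, against 3.66% and 3.72%.

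A test for any change over the 7 stages called 10 of the 36 MYB genes, against 32.9% of all genes tested. MYB13 (adjusted p = 0.000270), MYB91 (0.000843), MYB94 Solyc02g067340.2 (0.00111), MYB86 (0.00151), MYB107 Solyc07g053230.2 (0.00228), MYB30 (0.00322) and MYB3 Solyc12g049300.1 (0.00983) were among them. The other 3 were MYB1 (0.00317), MYB15 Solyc09g090130.2 (0.00496) and MYB19 (0.00748), which were called in none of the stage contrasts. The calls of MYB3, MYB19 and MYB15 were close to the limit and were lost on leaving out any of 13, 11 and 7 libraries. Without the cultivar term the adjusted p was 0.0115 for MYB3 and 0.0168 for MYB19. The any-change calls of MYB1, MYB13 and MYB30 were lost without HG6-61 at 42 DAF, HG6-61 at 7 DAF and AC at 28 DAF. Leaving out AC at 28 DAF or HG6-61 at 7 DAF lost several MYB calls, and fewer of all genes were called too.

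Over all stages, 0 of the 36 MYB genes were called between HG6-61 and AC, against 0.238% of all genes tested. At an unadjusted p under 0.05 there were 6 MYB genes (2843 genes of all), and DESeq2 called 0 MYB genes. Log2 fold changes lay between -1.78 (MYB5 Solyc01g005660.1, SE 0.54, adjusted p = 0.163) and 1.34 (MYB77, SE 0.47, adjusted p = 0.205). This test has 1 pair of libraries per stage. At the limit of 0.01 the share of tested MYB genes called was below that of all genes in each of these 5 comparisons, but at 0.05 it was above it in 4 of them.

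At 35 DAF the ripening genes summed to 10881 RPKM in AC and 234 in HG6-61, and 22 MYB genes had at least 10 reads in one of the libraries. Of these, 5 were at least 4-fold higher in HG6-61 and 1 was at least 4-fold lower, against 5.46% and 4.69% of all genes compared (10.1% in all). With a 2-fold limit 10 were apart (29.5% of all genes), and with at least 50 reads 2 of 8 at 4-fold (7.48%). With 1 library each, no test of the cultivars is possible, and the intervals cover counting error only. MYB105 was at 1.60 RPKM in AC and 29.1 in HG6-61, on 6 and 46 reads (ratio of reads per library total 22.4, 95% interval 9.56 to 64.3). MYB88 was at 3.88 and 40.5 RPKM (ratio 11.3, 7.63 to 17.1). MYB77 (Solyc04g079360.1), relative of an auxin response factor partner, was at 4.48 and 40.2 RPKM (ratio 9.75, 5.39 to 18.7).

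MYB61 Solyc01g102340.2 was at 1.40 RPKM in AC and 12.3 in HG6-61 (ratio 9.84, 4.92 to 21.4), and MYB65 Solyc01g009070.2 at 1 and 6.07 (ratio 6.22, 2.54 to 16.6). For these last genes, as for the 3 before, the interval excluded equality. MYB1 was lower in HG6-61, at 0.40 RPKM on 1 read against 2.93 on 20 reads (ratio 0.146, 0.00353 to 0.915). One stage later, at 42 DAF, HG6-61 had 1.38 RPKM of MYB105, 2.63 of MYB88, 2.16 of MYB77, 1.67 of MYB61 and 3.98 of MYB65. Those values lay in the range of the AC values at 35 DAF, 1 to 4.48, and MYB1 was then at 12.2 in HG6-61.

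HG6-61 at 35 DAF was also set against AC at 28 DAF. The ripening genes of AC then summed to 784 RPKM, above the 234 of HG6-61 at 35 DAF, so ripening was not matched. Against that AC stage, HG6-61 at 35 DAF was at least 4-fold higher in 1 of 32 MYB genes and 4-fold lower in 7. Of all genes, 1.93% and 8.41% were at least 4-fold higher and lower (10.3% in all). The gene that stayed higher was MYB77, at 40.2 RPKM against 4.50. For MYB105, MYB88, MYB61 and MYB65 the AC values at 28 DAF were 24.4, 17.6, 17.1 and 10.7 RPKM. With that AC stage, 4 of the 5 genes were no longer 4-fold higher. The stage was chosen after the data were seen. At 35 DAF the summed seed genes were at 3319 RPKM in AC and 4562 in HG6-61, and the part of seed RNA was not tested.

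**Figure D5:**
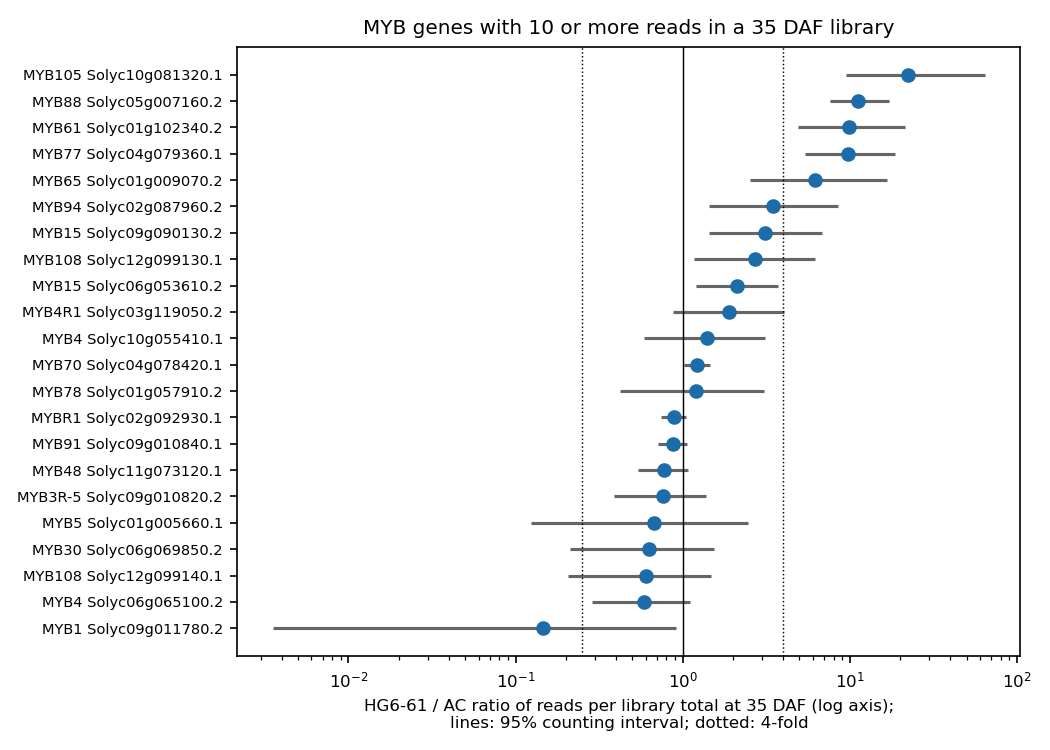
Ratio of HG6-61 to AC at 35 DAF in reads per library total (log axis) for the 22 MYB genes with at least 10 reads in one of the libraries, with the 95% counting interval as a line, equality as a solid line and 4-fold as dotted lines. MYB105, MYB88, MYB61, MYB77 and MYB65 lie beyond 4-fold on the right and MYB1 beyond it on the left.

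The 48 genes had 31 closest Arabidopsis genes, and 13 of these were shared by 30 tomato genes. In 12 of the 13 the tomato genes were highest at different stages in AC, MYB3 being the exception. These stages are partly uncertain, since in AC the highest exceeded the second beyond counting error in 21 of the 48 genes. Among all Arabidopsis genes shared by 2 or 3 tomato genes, 75.7% had different AC stages. Reads that mapped to several places were removed before counting, so genes with a close copy could have lost reads. The genes lie on all 12 chromosomes, with 2 to 8 per chromosome.

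Of the MYB107 genes, Solyc07g053230.2 had 84 and 105 reads at 21 DAF, while its neighbour on chromosome 7, Solyc07g053240.2, was highest at 7 DAF with 6 and 13 reads (3.48 and 3.49 RPKM) and had 0 to 6 later. The MYB15 gene Solyc06g053610.2 was highest at 7 DAF, whereas Solyc09g090130.2 was at 4.55, 4.15, 15.1, 19.6, 3.13, 0.89 and 17.4 RPKM in AC and at 4.35, 5.12, 8.89, 12.99, 9.13, 0.79 and 11.6 in HG6-61. The second MYB15 gene was lowest at 42 DAF in both cultivars, with 2 reads each, and was higher again at 49 DAF.

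MYB94 and MYB5 each had a gene highest at 7 DAF and one highest at 21 DAF in both cultivars. The second MYB94 gene, Solyc02g087960.2, was at 10.1 RPKM at 21 DAF in AC and 11.3 in HG6-61, and between 0.86 and 9.14 at other stages. The MYB4 genes were highest at 7 DAF (Solyc01g111500.2, at 8.70 RPKM in AC and 3.2 in HG6-61), and otherwise from 14 to 28 DAF. Solyc06g065100.2 of the MYB4 genes reached 20.6 RPKM in AC (21 DAF) and 17.5 in HG6-61 (14 DAF).

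Next to each other on chromosome 12 lie the MYB108 genes, relatives of a factor for Botrytis resistance and stamen maturation. Solyc12g099130.1 was at 0, 0, 0.66, 12.7, 4.62, 0 and 18.6 RPKM in AC and at 0.98, 1.5, 1.03, 5.58, 11.6, 0 and 0.77 in HG6-61. Solyc12g099140.1 was at 0, 0, 1.77, 4.61, 7.26, 3.31 and 4.28 RPKM in AC and at 0, 0, 1.48, 0.97, 4.03, 4.07 and 0.50 in HG6-61. Both were scarce before 28 DAF. Solyc12g099130.1 had 37 reads at 49 DAF in AC and 1 in HG6-61, with 0 at 42 DAF in both. Of the MYB78 genes, which share their subgroup, Solyc05g053330.2 had 12 reads at 49 DAF in AC and 0 to 2 elsewhere, and Solyc01g057910.2 was at 0.18 to 4.16 RPKM in all.

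The MYB14 genes Solyc03g005570.2 and Solyc05g055030.1 were highest at 49 DAF in AC, at 8.57 and 14.1 RPKM, and at 2.4 and 3.35 there in HG6-61. Solyc03g093890.2, with its single high AC library at 28 DAF, had 1 read at 49 DAF in AC. The MYB61 genes Solyc06g071690.2 and Solyc10g044680.1 reached 10.4 and 3.44 RPKM in AC, below the 25.1 of Solyc01g102340.2. Of the MYB48 genes, Solyc06g005330.2 and Solyc06g075660.2 stayed at or below 2.58 RPKM against up to 56.7 for Solyc11g073120.1. The MYB17 genes, related to a floral meristem factor, reached 5.12 (Solyc01g094360.2) and 3.30 RPKM (Solyc05g048830.2), and the second MYB65 gene, Solyc06g073640.2, at most 2.54. In these families 1 gene carried most of the RNA, except for MYB14 and MYB17.

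Genes of pathways that MYB factors are known to control were counted in the same test between 7 and 49 DAF. Of all genes, 13.8% were lower and 8.83% higher. The lists rest on the symbol of the closest Arabidopsis gene, and the function of each tomato gene was not tested. Of 15 tested flavonoid genes, 4 were lower and 0 higher. Their course was not an even fall: the 22 listed flavonoid genes summed to 386 RPKM at 28 DAF and 827.5 at 35 DAF in AC. In HG6-61 the flavonoid sum was 88.4 at 35 DAF and 641 at 42 DAF. Among 31 tested genes of epidermis and cuticle, 15 were lower and 1 higher. Of 7 suberin genes 3 were lower, and of 39 phenylpropanoid and lignin genes 11 were lower and 8 higher. The median log2 fold change was -3.74 for the flavonoid, -2.95 for the epidermis and cuticle, -3.30 for the suberin and -0.49 for the phenylpropanoid genes, against -0.18 for all genes.

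Of the 3 tested xylem and secondary wall genes, 0 were called in any stage contrast. The 12 listed genes summed to 46.1 RPKM at 7 DAF and 6.55 at 49 DAF in AC. In HG6-61 the sums were 45.1 and 17.6. XCP1 Solyc04g082710.2 held 36.6 RPKM of the 7 DAF sum in AC and 25.9 in HG6-61. The bHLH partner TT8 (Solyc09g065100.1), which works with MYB factors on flavonoid genes, was at 12.6, 12.8, 10.01, 9.28, 1.73, 0 and 0 RPKM in AC and at 7.31, 3.87, 5.11, 3.04, 0, 0.65 and 0 in HG6-61. It was lower at 49 than at 7 DAF by the same test. Like MYB86 and MYB94, TT8 was scarce from 35 DAF on.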

How the data were processed

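RNA-seq libraries were made from fruit of AC and HG6-61, with 1 library per cultivar and stage. Raw reads were cleaned by the authors and mapped to the SL2.40 genome with TopHat, allowing at most 2 mismatches, and reads with several places were removed. The deposited counts are reads per gene. The deposited RPKM values scale those reads by gene length and library size. For the MYB genes they correspond to lengths of 651 to 3440 bases (median 1126, against a listed median of 1745). In 4 values RPKM was above 0 with a count of 0. Genome positions and strand were not used here.

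Counts were fitted with edgeR 4.0.16 (TMM, filterByExpr by stage, stage plus cultivar, 6 residual degrees of freedom) in R 4.3.3. Tables and intervals were made with pandas 2.3.3 and scipy 1.17.1 on numpy 2.4.6, and plots with matplotlib 3.10.9, all in Python 3.11.15. Ratios of reads have exact 95% binomial (Clopper-Pearson) intervals, and 0 reads were given a limit of 3 per library. The reads have no molecular identifiers, so both cover counting error only. Tested on simulated counts for 49 against 7 DAF with a log2 change of 3, the fit called 104 of 194 changed genes (53.6%) with 3 false calls among 17342 genes. The simulated counts held no cultivar effect, no change at other stages and no difference in ripening time between the cultivars. The number of false calls need not hold for the real libraries.

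The members and lists were chosen with earlier results of these data known. Named genes are the 2 highest of each AC stage group, those called at 49 against 7 or 28 DAF (at most 5 in each direction), those 4-fold apart at 35 DAF, those called between cultivars, those the study names, and those that share an Arabidopsis gene or are neighbours. MYB30, MYB19, MYB43, MYB82, MYB97, MYB109, MYB305 and MYB4R1 were named after their values were seen. Alternatives were DESeq2 1.42.0 and its size factors, no filter, no cultivar term, an adjusted p limit of 0.05, other read and fold limits, TMM scaling and each library left out.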

Additional observations from a re-analysis of the deposited data

Results flagged for a closer look

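MYB48 Solyc11g073120.1 moved in opposite directions between 28 and 49 DAF in the 2 cultivars, each beyond its counting interval. The RPKM ratio of 49 to 28 DAF was 1.37 in AC (95% interval 1.04 to 1.95, 79 against 88 reads) and 0.439 in HG6-61 (0.217 to 0.802, 13 against 56 reads). The difference between the cultivars was not tested, since each ratio rests on 1 library per stage.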

How the results depend on the processing

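None of the 100 results of single MYB genes under other settings, and none of the 280 with 1 library left out, reversed, while 5 and 69 were no longer called. The any-change results among them have no direction, so only those of the stage contrasts could have reversed. Where a stage kept 1 library, that library was assumed to vary like the others. With 1 library left out, the filter on reads let 42 to 45 MYB genes be tested. The share of all genes called also changed with the library left out. With an adjusted p limit of 0.05 the calls were 7 at 28 against 7 DAF, 16 at 49 against 7 DAF, 8 at 49 against 28 DAF and 24 for any change. DESeq2 gave 9 calls at 49 against 7 DAF, 4 at 49 against 28 DAF and 24 for any change (25.8%, 8.1% and 52.7% of all genes). No filter on low counts gave 7, 2 and 17, with all 48 genes tested (16.5%, 4.66% and 27.1%). With 1 library left out, calls ranged from 0 to 5 at 28 against 7 DAF, 2 to 8 at 49 against 7 DAF, 0 to 3 at 49 against 28 DAF, 6 to 13 for any change, and 0 to 0 between cultivars. Leaving out both 35 DAF libraries, chosen after seeing the data, gave 3 calls at 49 against 28 DAF (5.75% of all genes). The cultivar term ties the libraries of a cultivar together as a replicate block. Without it, 1 gene was called at 49 against 28 DAF and 8 for any change (2.15% and 27.2% of all genes). Replicate numbers are all 1, so they pair nothing. With at least 50 reads required, 12 of 23 genes had the same stage of highest level, and 2 of 8 were 4-fold apart at 35 DAF. A 2-fold limit gave 10 of 22, and the comparison with AC at 28 DAF 8 of 32. With TMM scaling the genes highest at 21 or 28 DAF were 18 in AC and 15 in HG6-61, against 18.2% and 16.3% of all genes. Depth limits all of these counts, since 134 of 672 values had no read.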
